A study of Mus musculus with 8 samples.

Results

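Tibialis anterior of Eif6 heterozygous mice was compared with that of wild-type mice on 4 of the 8 arrays of the series, the ones titled as tibialis anterior pairs 1 to 4; the other 4 arrays held gastrocnemius. By the methods the mice were male C57BL6 littermates aged 8 to 16 weeks, and by the labels 1 Eif6+/- mouse (Cy5) and 1 wild-type mouse (Cy3), matched at random, shared each array. The dyes were not exchanged on any array, so dye and genotype cannot be told apart, and the methods speak of Cy3 only. All 8 arrays lay on 1 slide with each muscle in its own row, so muscle and slide row cannot be told apart.

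eIF6 binds the large ribosomal subunit and keeps it from joining the small subunit until it is released, and it is also needed to make large subunits in the nucleolus. Tibialis anterior is a fast-twitch muscle of the shin, made largely of glycolytic fibres that hold the myosin heavy chain Myh4, with few slow fibres. Muscle fibres shift between glucose and fat as fuel with feeding and activity, and immediate early genes and clock genes in muscle move with contraction, hormones and time of day.

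Each value is a log2 ratio of Eif6+/- over wild type, so a value above 0 is a higher level in Eif6+/- muscle. The ratios came from spot intensities with a median per array of 60 to 64.5 in Cy5 and 46 to 61 in Cy3. The median background was 41 to 42.5 in Cy5 and 20 to 21 in Cy3, so it was higher in the Eif6+/- channel. Of the probes, 40.14% to 48.62% per channel were well above background. A gene stands for its brightest probe and was called when its adjusted p from limma was under 0.1. Precision is limited by the small number of arrays, 4 pairs.

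The Eif6+/- channels of pairs 1 and 4 were more alike than any other combination of tibialis anterior channels of 1 genotype. Over 7461 genes with a mean log2 level above 8, the difference between these 2 channels had an SD of 0.127, and 2 genes were apart by a log2 difference of 1 or more. Among the other 5 combinations of Eif6+/- channels the SD was 0.222 to 0.29, with 53 to 94 genes apart, and among the 6 combinations of wild-type channels it was 0.221 to 0.32, with 17 to 66 genes apart. For the 153 bright probes that were spotted 10 times on each array, the probe means of pairs 1 and 4 differed with an SD of 0.065, and the scatter among spots alone gives 0.073. The Eif6+/- gastrocnemius channels of pairs 1 and 4 were alike in the same way, with an SD of 0.115 beside 0.203 to 0.257 for the other 5 combinations. The labels do not say whether 1 mouse or 1 RNA sample stands in both pairs. The wild-type channels of pairs 1 and 4 did differ (SD 0.32), so the ratios are not copies, and the 4 pairs are given side by side. As an alternative chosen after seeing the data, pairs 1 and 4 were averaged into 1 replicate (n = 3), and where this ended the call of a list member or largest change named here, the value is given.

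**Figure D1:**
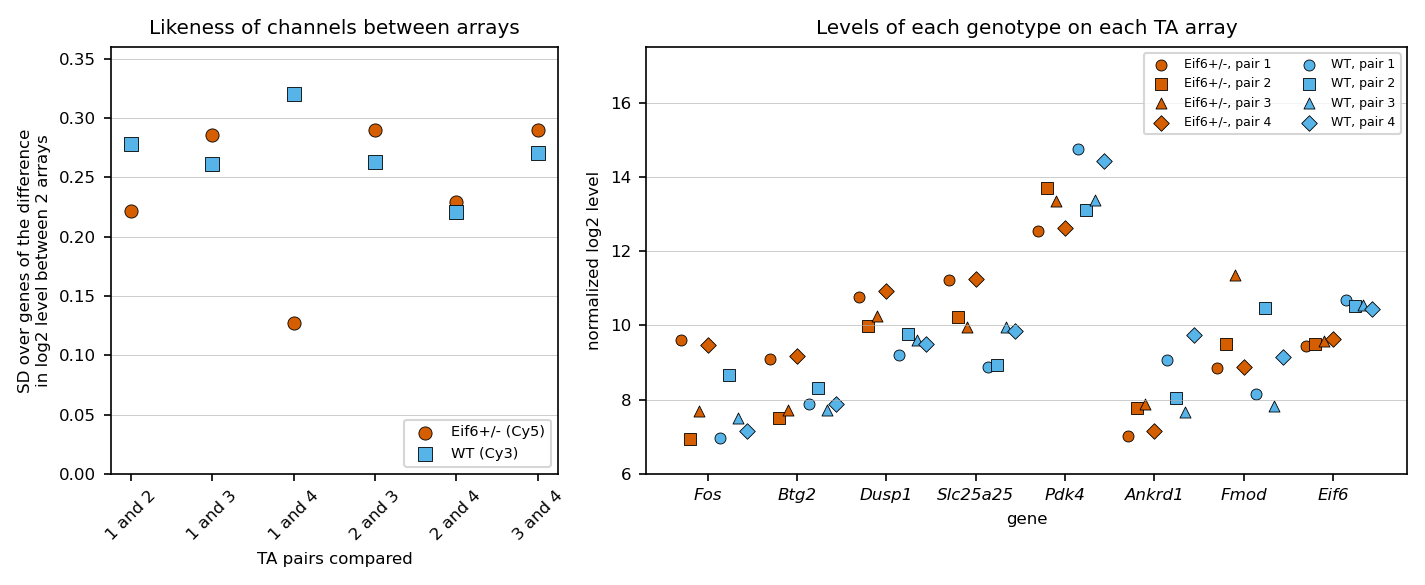
Left, the SD over 7461 genes of the difference in log2 level between arrays, for each combination of tibialis anterior pairs, in Eif6+/- (Cy5) and wild-type (Cy3) channels; the lowest point is pairs 1 and 4 in Eif6+/-, at 0.127. Right, log2 levels of 8 genes in each channel, where pairs 1 and 4 lie together in Eif6+/- and apart from pairs 2 and 3 for Fos, Btg2 and Pdk4.

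Eif6 itself was at log2 levels of 9.45, 9.49, 9.58 and 9.64 in Eif6+/- muscle of pairs 1 to 4 and at 10.67, 10.53, 10.54 and 10.43 in wild type. The genotypes did not overlap, and every pair had a ratio below 0: −1.22, −1.03, −0.96 and −0.80. The mean was −1.002 ± 0.17 (SD, n = 4 pairs, adjusted p = 0.0113), and the other probe of Eif6 gave −1.12. Without pair 1 the mean was −0.93 and the adjusted p 0.104, and with pairs 1 and 4 averaged they were −0.999 and 0.0316. Of the other 6 genes that act with eIF6 on the large subunit, Rack1, a ribosome-bound scaffold, rose (0.56, 0.29, 0.32 and 0.33, mean 0.37, adjusted p = 0.0341, 0.171 without pair 1). Efl1, the GTPase that releases eIF6 from the large subunit, had a mean of 0.25 and was not called (adjusted p = 0.119).

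Across all genes, 2007 of the 12381 tested (16.2%) were called, 1091 higher (8.81%) and 916 lower (7.4%) in Eif6+/- tibialis anterior. The changes were small: their median size was 0.32 (1.25-fold), 86 genes changed by at least 1.5-fold (46 higher and 40 lower) and 6 by at least 2-fold. The sign was the same on all 4 pairs for 4389 genes (35.4%), among them 1930 of the called genes. With loess alone in place of loess and quantile normalization, 2114 genes were called and the split was 1366 higher and 748 lower, 64.6% higher beside 54.4%. The split also depended on the test and the unit: SAM at a false discovery rate of 0.05 gave 273 higher and 41 lower, and counting probes gave 1762 higher and 1796 lower. With pairs 1 and 4 averaged, 1535 genes were called, 798 higher and 737 lower, and 1435 of them were among the 2007.

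Pair 1 was most often the extreme one. It lay farthest from 0 for 927 of the called genes (46.2%), whereas it held that place for 34% of all genes, and the median size of the called genes was 0.41, 0.33, 0.30 and 0.26 in pairs 1 to 4. Without pair 1, limma called 0 genes (2193 had an unadjusted p under 0.05, and the smallest adjusted p was 0.104, shared by 61 genes). All 2007 kept their sign, at a median size of 0.29. They were chosen on means that include the remaining pairs, so the kept sign is no separate support. Leaving out pairs 2, 3 and 4 gave 571, 1158 and 1981 called genes. No call named here therefore held with every pair left out, and for many of the lists the text says how many calls held without each pair. The pairs also differed in shape: ratios of 1 or more were found for 109 genes in pair 3 and for 39, 21 and 17 in pairs 1, 2 and 4, and ratios of −1 or less for 10 genes in pair 3 and for 29, 33 and 34 in the others. Across genes, which are not independent replicates, the ratios of pairs 1 and 3 correlated most (r = 0.489) and those of pairs 3 and 4 least (r = 0.121), and the pairs that share alike Eif6+/- channels, 1 and 4, had r = 0.435.

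The largest mean increase over the 4 pairs was that of Slc25a25, a calcium-regulated carrier that exchanges ATP-Mg and phosphate across the inner mitochondrial membrane. Its log2 levels in Eif6+/- muscle were 11.22, 10.23, 9.95 and 11.25 in pairs 1 to 4, and in wild type 8.87, 8.93, 9.95 and 9.86. Pairs 1, 2 and 4 were higher in Eif6+/- and pair 3 was level, with ratios of 2.35, 1.29, 0.0003 and 1.38 and a mean of 1.26 ± 0.96 (SD, n = 4, adjusted p = 0.0466). The call ended without pair 1 (0.89, adjusted p = 0.194), without pair 2 (1.24, adjusted p = 0.118) and with pairs 1 and 4 averaged (1.05, adjusted p = 0.104). Its place depended on the setting: the mean of Sdc4 was larger with pairs 1 and 4 averaged (1.21), and those of Rem1 (2.45) and Sdc4 (2.03) were larger with Agilent's processed signals, where Slc25a25 was at 1.40. Without pair 1 the means of Amd2 (1.00) and Sdc4 (0.95) were larger than that of Slc25a25 (0.89). Without pair 4 that of Sdc4 was larger (1.46 beside 1.21).

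Sdc4, a heparan sulphate proteoglycan of the cell surface that is also a satellite cell marker, rose by a mean of 1.099 (adjusted p = 0.0369). Its ratios were 1.54, 1.43 and 1.42 in pairs 1 to 3 and 0.002 in pair 4. The Eif6+/- levels were much the same in all pairs (8.43, 8.36, 8.52 and 8.29), and the wild-type level of pair 4 stood apart, at 8.29 beside 6.89, 6.93 and 7.10. With Agilent's processed signals its mean was 2.03, without a call (adjusted p = 0.101). Without pair 1 its mean was 0.95 and its adjusted p 0.192, and without pair 2 they were 0.99 and 0.107. None of the other 6 syndecans and glypicans tested was called, nor were the other 5 satellite cell markers, among them Pax7 (−0.08) and Cdh15 (−0.19).

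Rem1, a small GTPase that holds back voltage-gated calcium channels, rose by 1.04, 0.89, 0.74 and 0.87 in pairs 1 to 4 (mean 0.88 ± 0.13, adjusted p = 0.0113). It was above background in wild type on 2 of 4 arrays only, so its size is uncertain: it reached 2.45 with Agilent's processed signals, and the gene was not tested where both channels had to be above background. Acsl3, which activates long-chain fatty acids, had 0.82, 0.87, 0.50 and 0.71 (mean 0.72, adjusted p = 0.0132). Mstn, the secreted brake on muscle growth, rose by 1.00, 0.77, 0.23 and 1.17 (mean 0.79, adjusted p = 0.0247), least in pair 3. Dkk3, a secreted protein of the Dickkopf family, had 0.80, 0.43, 1.03 and 0.56 (mean 0.71, adjusted p = 0.0171). Lrtm2 and the pseudogene Hmga2-ps1 were also among the 12 largest increases, at 0.78 and 0.74. Without pair 1 the adjusted p was 0.104 for Rem1 and Acsl3, 0.155 for Mstn, 0.12 for Dkk3, 0.181 for Lrtm2 and 0.124 for Hmga2-ps1, and Hmga2-ps1 also missed the threshold without pair 2 (0.101).

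**Figure D2:**
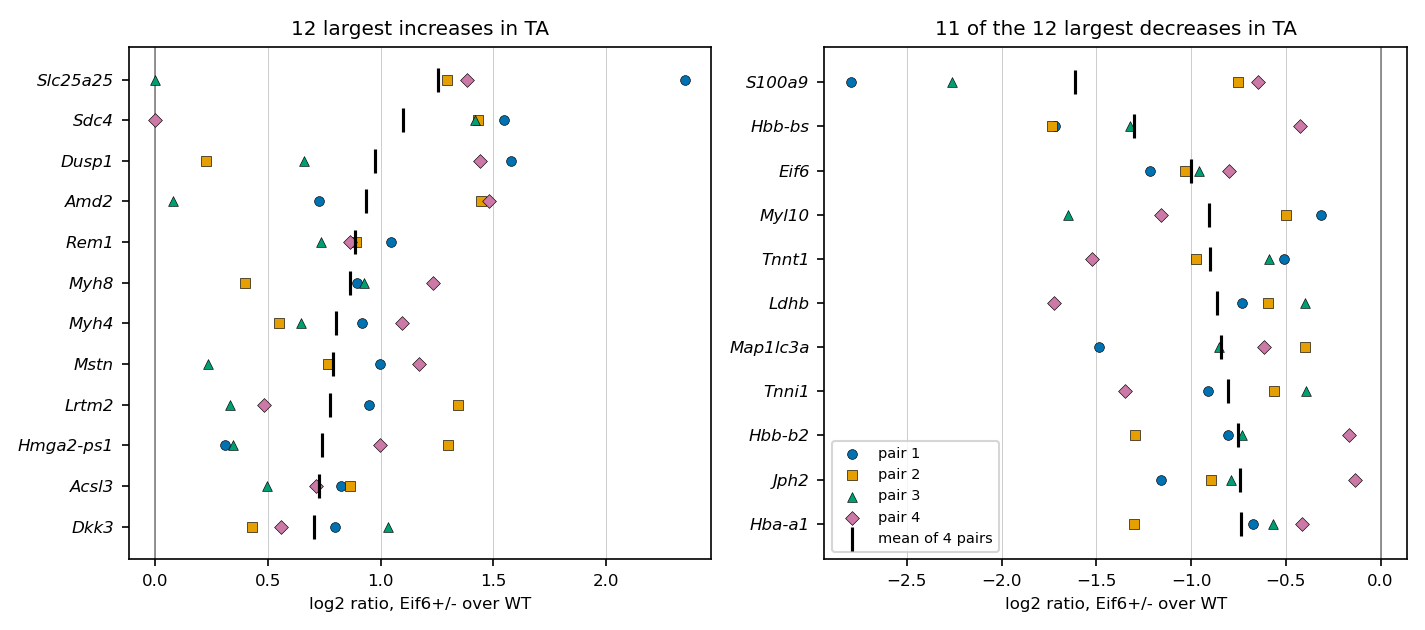
Log2 ratio of Eif6+/- over wild type in each of the 4 tibialis anterior pairs (points) and their mean (bar) for the 12 largest increases and 11 of the 12 largest decreases among called genes with 1 sign, Slc25a25 at the top and S100a9 at the bottom of the range. Eif6, Rem1 and Acsl3 have their 4 points close together, whereas those of Slc25a25 run from 0.0003 to 2.35.

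The largest decrease was in S100a9, a calcium-binding protein abundant in neutrophils. Its levels in Eif6+/- muscle were 6.34, 7.58, 6.58 and 6.49, and in wild type 9.13, 8.33, 8.84 and 7.14. The ratios were −2.80, −0.75, −2.26 and −0.65, strongest in pairs 1 and 3, with a mean of −1.61 ± 1.08 (SD, n = 4, adjusted p = 0.0353, 0.161 without pair 1). With Agilent's processed signals the mean of S100a9 was −2.66. Of the haemoglobin messages of red blood cells, Hbb-bs had −1.72, −1.74, −1.32 and −0.43 (mean −1.30, adjusted p = 0.0184), and Hba-a1 and Hbb-b2 had means of −0.74 and −0.75. These 3 were weakest in pair 4, whereas Hba-a2, the brightest, had 0.0047, −0.99, −0.47 and 0.12 and was not called (mean −0.33, adjusted p = 0.225). In bulk muscle, fewer cells of a type and less RNA per cell cannot be told apart. Leaving out pair 1 gave an adjusted p of 0.122 for Hbb-bs, 0.145 for Hba-a1 and 0.182 for Hbb-b2.

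Among the other large decreases, Map1lc3a, a protein of the autophagosome membrane, fell by 1.49, 0.40, 0.85 and 0.62 in pairs 1 to 4 on the log2 scale (mean −0.84, adjusted p = 0.0278). Jph2, which ties the T-tubule to the calcium store, had −1.16, −0.90, −0.79 and −0.13 (mean −0.74, adjusted p = 0.0325), with pair 4 near 0. For both genes pair 1 was the lowest, and without it the adjusted p was 0.112 and 0.171. Myl10, a myosin light chain, was lowest in pair 3 (−0.31, −0.50, −1.65 and −1.16, mean −0.90, adjusted p = 0.0393, 0.118 without pair 1).

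Of 16 slow fibre genes tested 8 fell and none rose (50%, beside 7.4% of all genes called lower), and the median of the 16 was −0.48, beside 0.0175 over all genes. By pair the median was −0.32, −0.43, −0.10 and −1.15, lowest in pair 4 and nearest 0 in pair 3; it was −0.678 without pair 3 and −0.318 without pair 4. On the thin filament 3 of 4 slow troponin and tropomyosin genes fell: Tnnt1, slow troponin T, had −0.51, −0.97, −0.59 and −1.52 (mean −0.90 ± 0.46, adjusted p = 0.024). Tnni1, slow troponin I, had −0.91, −0.56, −0.39 and −1.35 (mean −0.80, adjusted p = 0.0254), and Tnnc1, the troponin C of slow and cardiac muscle, had a mean of −0.41. These 3 were below 0 in every pair, whereas Tpm3, slow tropomyosin, was at 0.21 and was not called, and 2 of its 3 probes pointed down, to −0.77.

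Of the slow thick filament genes, Myh7b alone was called, at −0.57, −0.99, −0.65 and −0.52 (mean −0.68 ± 0.21, adjusted p = 0.0132). The slow myosin heavy chain Myh7 had ratios of 0.15, −2.61, 1.40 and −0.70 (SD 1.68, adjusted p = 0.602), and its light chain Myl2 had the same signs, at 0.52, −1.46, 0.91 and −1.70. Pairs 1 and 3 were above 0 and pairs 2 and 4 below for both. The wild-type mouse of pair 2 had the highest Myh7 level of the 8 channels, 10.83, beside 7.45, 7.69 and 8.43 in the other wild types and 7.60 to 9.08 in Eif6+/-. Of the oxygen and calcium stores of slow fibres, myoglobin (Mb) had −0.08, −0.45, −0.47 and −1.15 (mean −0.54), lowest in pair 4; its mean was −0.33 without pair 4 and −0.34 with loess alone. On the log2 scale, slow calsequestrin (Casq2) fell by 0.59 and sarcolipin (Sln), an inhibitor of the calcium pump, by 0.66. Csrp3 and Ankrd2, proteins of the Z disc, swung between pairs (Ankrd2 −1.13, −0.08, 0.99 and −1.63, adjusted p = 0.422) and were not called, while Myoz2, the calsarcin of slow fibres, fell (−0.36, −0.40, −0.14 and −1.22, mean −0.53, adjusted p = 0.0766), at −0.30 without pair 4. Of the 8 slow fibre calls 0 held without pair 1 (adjusted p of 0.104 to 0.224), and 5, 7 and 8 held without pairs 2, 3 and 4. With pairs 1 and 4 averaged 7 slow fibre genes were called lower, and Sln (adjusted p = 0.114) was not among them. In the fit over all 8 arrays, where the spread of gastrocnemius counts too, 7 of the 8 slow fibre calls ended: Tnnt1 (0.257), Tnni1 (0.206), Tnnc1 (0.56), Myh7b (0.383), Mb (0.257), Sln (0.464) and Myoz2 (0.432). Casq2 alone held.

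Of 19 fast fibre genes tested 4 rose and 2 fell (31.6% called beside 16.2% of all genes), with a median of 0.004, and these figures depended on the scaling. With loess alone 7 rose and 1 fell (median 0.104), in the deposited ratios 7 and 1 (0.128), with Agilent's processed signals 5 and 0 (0.054), and with pairs 1 and 4 averaged 4 and 3 (−0.052); without pair 4 the median was −0.10. Myh4, the myosin heavy chain of the fastest fibres, rose by 0.92, 0.55, 0.65 and 1.096 in pairs 1 to 4 (mean 0.80 ± 0.25, adjusted p = 0.0132). Tnnc2, fast troponin C, rose by a mean of 0.57 and Tpm1, fast tropomyosin, by 0.49 (0.87 and 0.75 with loess alone), each above 0 in all 4 pairs, although 2 of the 5 probes of Tpm1 pointed down, to −0.34. Myh1 and Myh2, the heavy chains of intermediate fast fibres, had means of 0.05 and 0.01; Myh2 had 1.38, −0.04, 0.32 and −1.61, highest in pair 1 and lowest in pair 4. Atp2a1, the calcium pump of fast fibres, fell in pairs 1 to 3 (−0.91, −0.88 and −0.70) and was at 0.04 in pair 4 (mean −0.61, adjusted p = 0.0493), and Ckm, muscle creatine kinase, had the same shape (−0.64, −0.60, −0.72 and 0.41) without a call (adjusted p = 0.188). The wild-type Ckm level of pair 4 was 16.50 beside 17.43 to 17.47 in the other wild types, and the Eif6+/- levels were 16.74 to 16.91. Atp2a1 was not called with loess alone (−0.56, adjusted p = 0.114), nor without pair 1 (0.229), 2 (0.144) or 3 (0.106). Of the 6 fast fibre calls 0 held without pair 1 (adjusted p of 0.104 to 0.256), and 4, 4 and 6 held without pairs 2, 3 and 4.

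Of 12 genes of immature sarcomeres 1 rose and 5 fell (50% called beside 16.2% of all genes), with a median of −0.30, and with pairs 1 and 4 averaged 1 rose and 3 fell (−0.233). The brightest probe of Myh8, the perinatal myosin heavy chain, had 0.89, 0.40, 0.92 and 1.23 (mean 0.86, adjusted p = 0.0153, 0.118 without pair 1). The other probe of Myh8 gave −0.11. The mean log2 level of the brightest probe, 17.12, was above that of the adult fast myosin Myh4 (16.91). Its ratios were also near those of Myh4 (0.92, 0.55, 0.65 and 1.096). Whether this probe reads Myh8 alone was not tested, so a rise of perinatal myosin is uncertain. Among the 5 that fell were Acta2, smooth muscle actin (−0.51), Myl10 and Tnnt2, the cardiac and embryonic troponin T. Tnnt2 had −0.84, 0.03, −0.96 and −1.20 (mean −0.74, adjusted p = 0.0462), with pair 2 near 0. It was not called without pair 1 (0.212), without pair 3 (0.104) or with pairs 1 and 4 averaged (0.112), and of the 6 calls 4, 4 and 6 held without pairs 2, 3 and 4. The fit over all 8 arrays ended the call of Tnnt2 (0.216) and those of Ncam1 (0.351) and Xirp1 (0.272), which had also fallen. Ankrd1, a stress protein of the Z disc, was far lower in pairs 1 and 4 (−2.04 and −2.59) than in pairs 2 and 3 (−0.29 and 0.20) and was not called (adjusted p = 0.109).

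**Figure D3:**
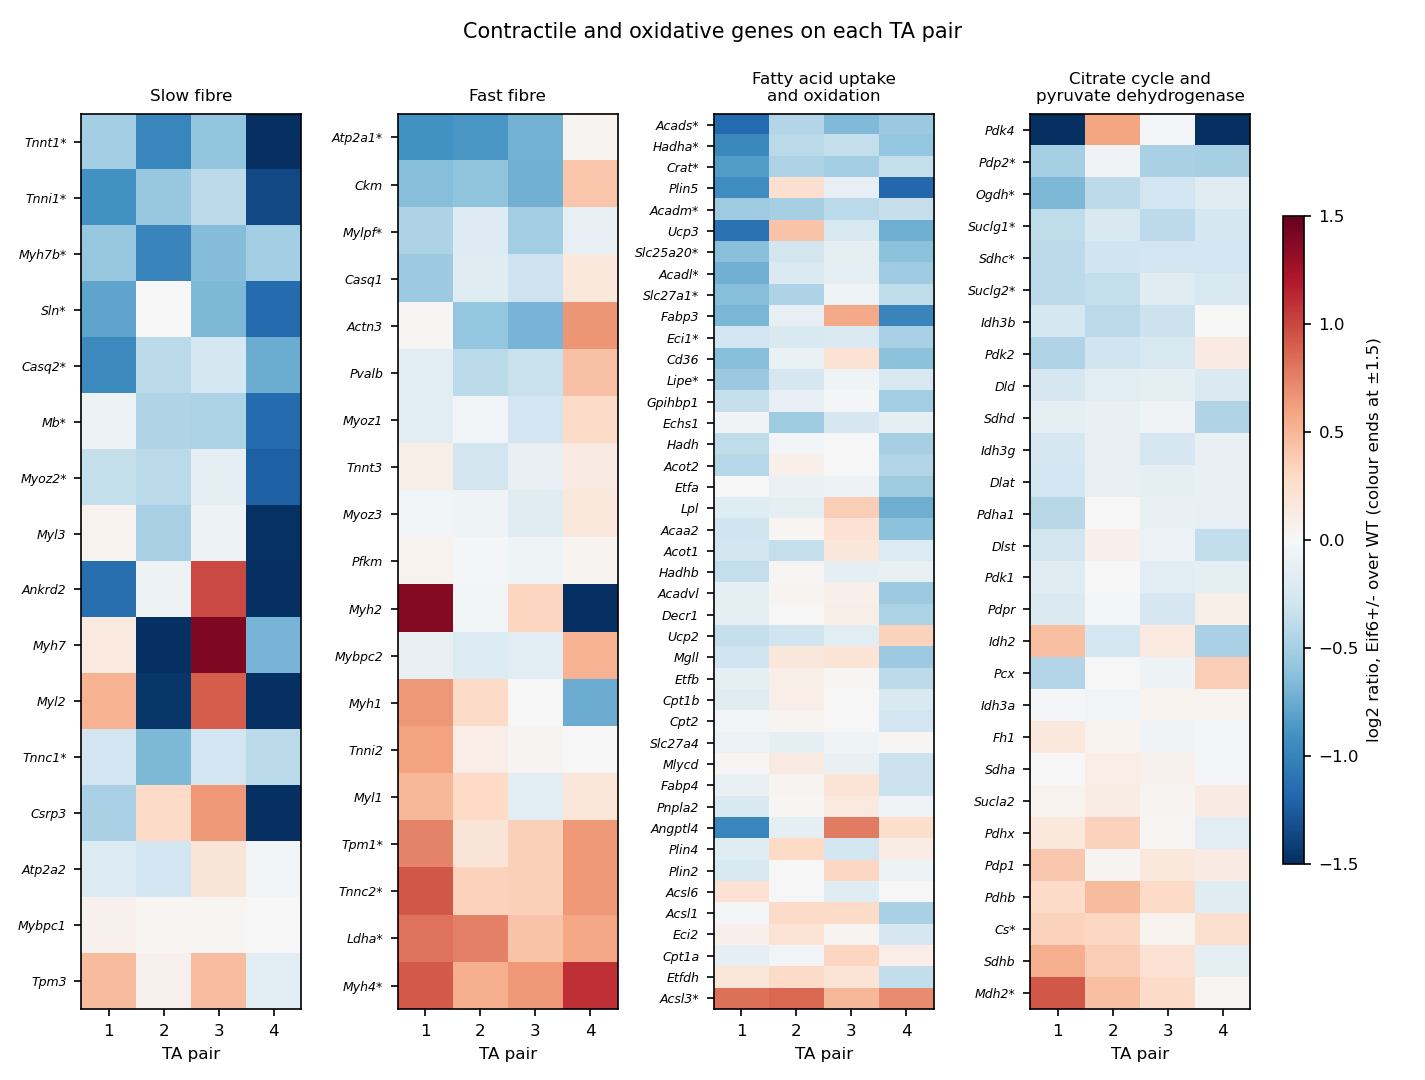
Log2 ratios of Eif6+/- over wild type in tibialis anterior by pair for slow fibre genes, fast fibre genes, fatty acid uptake and oxidation genes, and citrate cycle and pyruvate dehydrogenase genes; a star marks a called gene, and colours end at ±1.5. Slow fibre genes are mostly below 0 with pair 4 lowest; the fast fibre genes are mixed, and their median of 0.004 became 0.104 with loess alone and −0.052 with pairs 1 and 4 averaged.

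Of 42 genes of fatty acid uptake and oxidation, 9 fell and 1 rose (23.8% called beside 16.2% of all genes), and 6 of the 42 had a mean ratio above 0. The list median of −0.155 became −0.099 with pairs 1 and 4 averaged, −0.233 without pair 3 and −0.089 without pair 4. The median by pair was −0.279, −0.024, −0.006 and −0.374, so that pairs 1 and 4 were low and pairs 2 and 3 lay near 0. In beta oxidation, 5 of 20 genes fell: Acads, the dehydrogenase of short acyl chains, had −1.17, −0.44, −0.66 and −0.55 (mean −0.70, adjusted p = 0.0222), and Acadm, that of medium chains, had −0.53, −0.50, −0.40 and −0.34 (mean −0.44, adjusted p = 0.0196). Hadha, of the trifunctional protein, had a mean of −0.58, Acadl −0.40 and Eci1 −0.30. All 5 were below 0 in every pair.

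At the mitochondrial membrane, Crat, carnitine acetyltransferase, fell by a mean of 0.54 on the log2 scale, and Slc25a20, the carnitine carrier, had a mean of −0.41 (adjusted p = 0.0483). The fatty acid transporter Slc27a1 and the lipase Lipe were also called lower, at −0.39 and −0.28. Plin5, which coats lipid droplets beside mitochondria, had −0.94, 0.24, −0.13 and −1.17, low in pairs 1 and 4 alone, and was not called (adjusted p = 0.167). Of the 10 calls in the list 0 held without pair 1 (adjusted p of 0.104 to 0.323), 5 without pair 2, 10 without pair 3 and 7 without pair 4. With pairs 1 and 4 averaged 1 rose and 5 fell; Slc25a20 (−0.34, adjusted p = 0.109), Acadl (−0.32, 0.128), Slc27a1 (−0.35, 0.104) and Lipe (−0.24, 0.146) were then not called. Lipe was not called with loess alone either (0.118), and Slc25a20 was not called without pair 1 (0.22) or 2 (0.101). In the fit over all 8 arrays 6 of the 9 falls ended: Acadm (0.113), Acadl (0.162), Eci1 (0.176), Slc25a20 (0.131), Slc27a1 (0.189) and Lipe (0.245).

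Of 29 genes of the citrate cycle and pyruvate dehydrogenase 27.6% were called, beside 16.2% of all genes. In the cycle 5 of 19 genes fell and 2 rose. Ogdh, of the oxoglutarate dehydrogenase complex, had −0.67, −0.39, −0.29 and −0.18 (mean −0.38, adjusted p = 0.0471), and Sdhc, Suclg1 and Suclg2 had means of −0.31, −0.31 and −0.29. Mdh2, mitochondrial malate dehydrogenase, and Cs, citrate synthase, rose by means of 0.42 and 0.24, Cs without a call when pairs 1 and 4 were averaged (0.158). Genes that control the entry of pyruvate differed between pairs. Pdk4, the kinase that shuts pyruvate dehydrogenase off in fasting, was at levels of 12.55, 13.70, 13.36 and 12.61 in Eif6+/- and 14.74, 13.10, 13.39 and 14.42 in wild type. Its ratios were −2.19, 0.59, −0.03 and −1.81 (mean −0.86, adjusted p = 0.21, not called), with both the highest wild-type levels and the lowest Eif6+/- levels in pairs 1 and 4. Pdp2, a phosphatase that turns the same complex on, fell (−0.50, −0.05, −0.49 and −0.50, adjusted p = 0.0495), with pair 2 near 0. Of the 8 calls in this group 0, 1, 4 and 7 held without pairs 1, 2, 3 and 4. Ogdh was not called without pair 1 (0.198) or 2 (0.1253), Mdh2 without 1 (0.287), 2 (0.193) or 3 (0.127), and Pdp2 without 1 (0.22), without 3 (0.117) or with pairs 1 and 4 averaged (0.109). The fit over all 8 arrays ended the calls of Ogdh (0.102), Mdh2 (0.117) and Suclg2 (0.187).

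Of 82 subunits of oxidative phosphorylation, 13 fell and 2 rose (18.3% called beside 16.2% of all genes), with a list median of −0.042. With loess alone 12 fell and 6 rose (median 0.001), in the deposited ratios 11 fell and 6 rose (0.012), and without pair 4 10 fell and 8 rose (0.013). The 13 falls were spread over the chain: 5 in complex I, 1 in complex II, 3 in complex III, 2 in complex IV and 2 in ATP synthase. Uqcrc1, of complex III, had −0.73, −0.50, −0.52 and −0.33 (mean −0.52, adjusted p = 0.0193), and Cox6b1, of complex IV, had −0.51, −0.30, −0.48 and −0.48 (mean −0.44). The 2 that rose were Atp5b (0.38) and Ndufc1 (0.42), and all 4 genes kept 1 sign in every pair. None of the 15 calls held without pair 1 (adjusted p of 0.12 to 0.325), and 3, 10 and 12 held without pairs 2, 3 and 4.

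Among 38 genes of glycolysis and glycogen, 8 rose and 7 fell (39.5% called beside 16.2% of all genes), and with loess alone 8 rose and 4 fell. The chains of lactate dehydrogenase went apart. Ldha, the lactate dehydrogenase chain of glycolytic muscle, rose by 0.82, 0.76, 0.43 and 0.58 (mean 0.65 ± 0.18, adjusted p = 0.0132), although 2 of its 3 probes pointed the other way, down to −0.25. Ldhb, the chain of oxidative tissue, had −0.73, −0.60, −0.40 and −1.73, lowest in pair 4 (mean −0.86, adjusted p = 0.0399; not called in the fit over all 8 arrays, 0.281). Aldoa, aldolase of muscle, rose by 0.72, 0.59, 0.19 and 0.54 (mean 0.51, and 0.91 with loess alone), and Pfkfb3, which makes the activator of phosphofructokinase, by 0.39, 0.29, 0.72 and 1.40 (mean 0.70, adjusted p = 0.0462), most in pair 4. The other probe of Pfkfb3 gave 0.0451 and was not called. On the glycogen side Ppp1r3b, a subunit that directs phosphatase to glycogen, Pgm1 and glycogenin (Gyg) rose by 0.52, 0.40 and 0.34, while Gys1, muscle glycogen synthase, fell (−0.33). Gapdh was at −0.21 (not called, adjusted p = 0.114), a sign that turned to 0.18 with loess alone. Without pair 1 all 15 calls ended (adjusted p of 0.104 to 0.33), and 8, 11 and 13 held without pairs 2, 3 and 4.

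Immediate early genes, which cells switch on within minutes of a stimulus, differed widely between the pairs. Fos, of the AP-1 factor, was at levels of 9.61, 6.93, 7.68 and 9.48 in Eif6+/- and 6.97, 8.66, 7.5 and 7.15 in wild type. Its ratios of 2.64, −1.73, 0.19 and 2.34 were high in pairs 1 and 4, low in pair 2 and near 0 in pair 3, and it was not called (SD 2.04, adjusted p = 0.392). Btg2, an antiproliferative early gene, had the same high levels in the Eif6+/- channels of pairs 1 and 4 (9.08 and 9.17), beside 7.49 and 7.72 in pairs 2 and 3 and 7.73 to 8.31 in wild type. Of the 43 genes tested, 4 rose and 1 fell, 11.6% called and so a smaller share than the 16.2% of all genes. Their median was 0.15, and 0.37, −0.04, −0.03 and 0.28 by pair; it was 0.079 with pairs 1 and 4 averaged, 0.039 without pair 1 and 0.252 without pair 2. None of the 7 AP-1 genes and none of the 12 zinc finger and orphan receptor factors was called.

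Of the 5 called early genes 3 are phosphatases of MAP kinases. Dusp1, which switches off p38 and JNK, was at 10.77, 9.99, 10.26 and 10.93 in Eif6+/- and 9.19, 9.77, 9.60 and 9.49 in wild type. The levels of the genotypes did not overlap, but how many of all genes separate in this way was not counted. The Eif6+/- channels of pairs 1 and 4 are alike, so these 2 levels may not be separate observations. Its ratios were 1.58, 0.23, 0.66 and 1.44, again highest in pairs 1 and 4 (mean 0.98 ± 0.64, adjusted p = 0.0369, 0.182 without pair 1). Dusp10 rose by a mean of 0.28 and Dusp8 fell (−0.61, −0.18, −0.45 and −0.14, mean −0.34, adjusted p = 0.0652). Ccn2, a matricellular growth factor, had 1.34, −0.01, 1.09 and 0.30 (mean 0.68, adjusted p = 0.0795) and lost its call without pair 1 (0.304), without pair 3 (0.185) and with pairs 1 and 4 averaged (0.112). Gadd45g, a stress gene, rose by 0.40 (adjusted p = 0.0405; 0.182 without pair 1 and 0.128 without pair 2). Of the 5 calls 0, 2, 2 and 4 held without pairs 1, 2, 3 and 4, and with pairs 1 and 4 averaged 3 early genes rose and 2 fell. The fit over all 8 arrays ended the calls of Dusp8 (0.235), Dusp10 (0.164) and Ccn2 (0.143).

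The cyclic AMP response element is a palindrome known from promoters of early genes, and promoters of 3 called genes that hold it are printed here, of which Slc25a25 and Dusp1 were highest in pairs 1 and 4. The letters TGACGTCA read alike on both strands and occur in 588 of 32851 mouse promoters of RefSeq (1.79%; GRCm38.p6, 250 bases before to 50 after each start). Of the 43 early genes tested, 33 had 42 promoters in that table, of which 5 hold the letters (11.9%), in Btg2, Dusp1, Dusp8, Maff and Ppp1r15a. Among the 12 largest increases, 10 genes had 13 promoters and 2 hold them, in Dusp1 and Slc25a25. Capitals mark the element, on the minus strand of chr2:32424017-32424316 for 1 of 3 promoters of Slc25a25, chr17:26508423-26508722 for Dusp1 and chr7:142095235-142095534 for Dusp8; a match is a description of letters, not of a bound site.
Slc25a25: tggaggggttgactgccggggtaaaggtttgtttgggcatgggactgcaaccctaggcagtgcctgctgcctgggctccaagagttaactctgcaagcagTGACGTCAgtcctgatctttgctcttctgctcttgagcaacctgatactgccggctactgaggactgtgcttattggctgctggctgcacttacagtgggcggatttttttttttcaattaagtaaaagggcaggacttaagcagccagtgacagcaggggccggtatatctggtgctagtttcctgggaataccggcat
Dusp1: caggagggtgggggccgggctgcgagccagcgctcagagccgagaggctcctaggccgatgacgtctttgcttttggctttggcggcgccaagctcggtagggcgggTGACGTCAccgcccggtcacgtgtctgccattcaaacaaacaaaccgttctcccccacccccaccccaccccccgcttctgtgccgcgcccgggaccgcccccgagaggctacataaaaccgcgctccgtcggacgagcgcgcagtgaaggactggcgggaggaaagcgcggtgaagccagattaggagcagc
Dusp8: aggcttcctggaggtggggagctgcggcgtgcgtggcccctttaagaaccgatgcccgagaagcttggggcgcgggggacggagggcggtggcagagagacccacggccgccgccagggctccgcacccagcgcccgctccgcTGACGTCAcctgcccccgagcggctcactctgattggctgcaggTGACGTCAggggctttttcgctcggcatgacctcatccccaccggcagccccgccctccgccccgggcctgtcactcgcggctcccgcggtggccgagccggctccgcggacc

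Of 19 clock genes tested, 6 rose and 2 fell, 42.1% called beside 16.2% of all genes, with a median of 0.14 that was alike in the 4 pairs (0.16, 0.114, 0.147 and 0.15). The repressors Nfil3 (0.53, 0.51, 0.37 and 0.70, mean 0.53, adjusted p = 0.0171) and Ciart (0.52, 0.57, 0.42 and 0.46, mean 0.49, adjusted p = 0.0145) rose evenly in all pairs. Per1, the period gene that also answers to glucocorticoids and cyclic AMP, rose by 1.38 in pair 1 and by 0.27, 0.32 and 0.41 in the others (mean 0.60, adjusted p = 0.0726), and Cry2 rose by 1.02 in pair 1 and by 0.17 to 0.44 in the others. Csnk1d, the kinase that marks period proteins, and Tef, an output factor, rose by 0.50 and 0.37, although the other probe of Csnk1d gave −0.45.

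Nr1d1, the nuclear receptor that represses Arntl, fell most in pairs 1 and 2 (−1.12 and −1.07) and less in pairs 3 and 4 (−0.40 and −0.11, mean −0.67, adjusted p = 0.0499). Clock (0.15, SD 0.011) and Arntl (−0.19, with pair 4 above 0) were not called. Of the 8 clock calls 0, 5, 7 and 8 held without pairs 1, 2, 3 and 4. Without pair 1 the adjusted p was 0.118 for Nfil3, 0.161 for Per1 and 0.226 for Nr1d1, and without pair 2 it was 0.111 for Per1 and 0.144 for Nr1d1.

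The E-box CACGTG, also a palindrome, is the letters through which clock activators are known to act, and it is in 2349 of the 32851 promoters (7.15%). For the clock genes tested, 15 had 23 promoters in the table, and 5 of these hold it (21.7%), in Bhlhe41, Ciart, Per1 and Tef. Of the 42 promoters of early genes 8 hold it as well (19%). The one shown, with the E-box in capitals, is 1 of 2 promoters of Per1, chr11:69098699-69098998 on the plus strand, chosen because Per1 stood highest in pair 1.
Per1: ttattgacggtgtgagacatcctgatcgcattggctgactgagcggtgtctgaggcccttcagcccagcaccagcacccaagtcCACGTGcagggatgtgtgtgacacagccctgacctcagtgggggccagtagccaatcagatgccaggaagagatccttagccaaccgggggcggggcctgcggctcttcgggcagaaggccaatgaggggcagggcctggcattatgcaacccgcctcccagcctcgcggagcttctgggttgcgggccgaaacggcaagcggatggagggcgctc

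**Figure D4:**
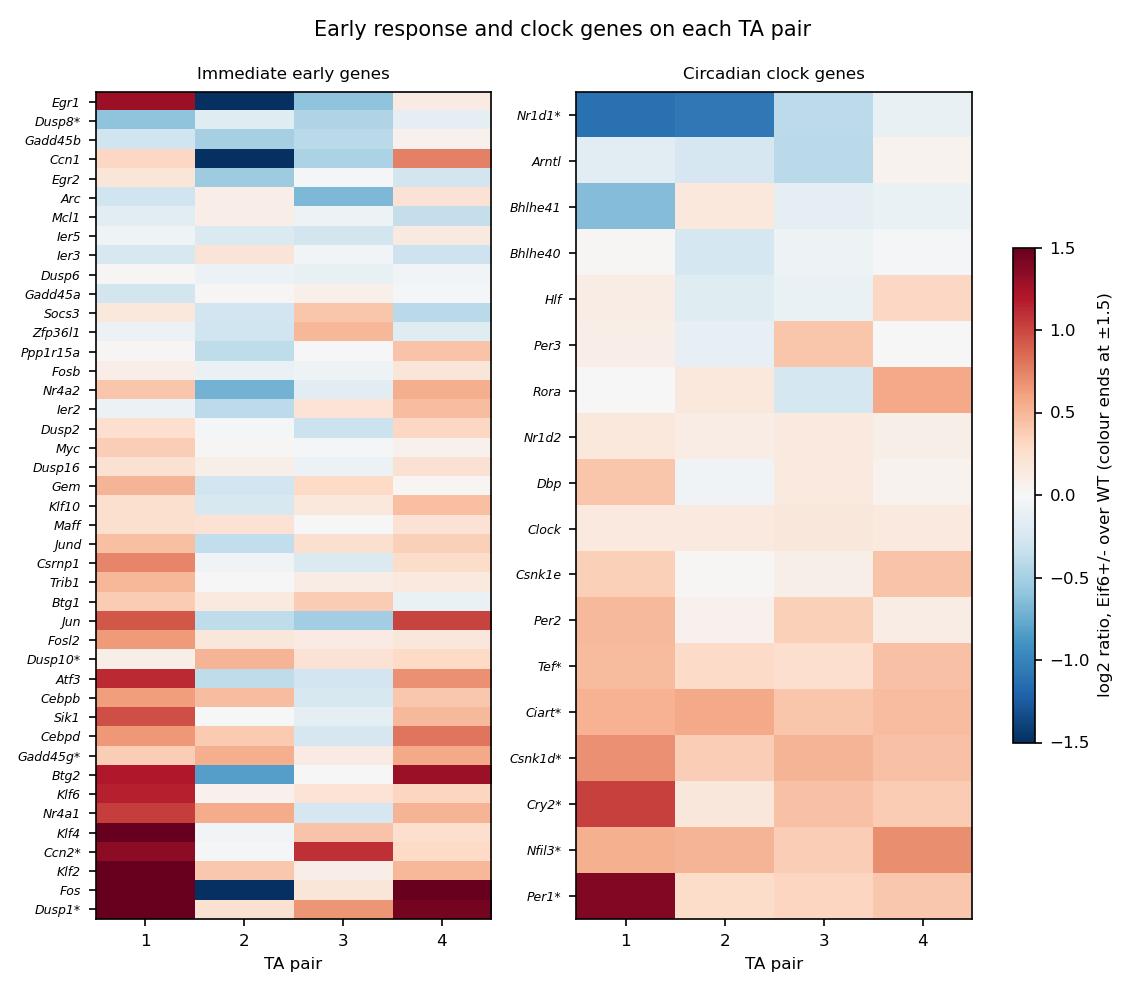
Log2 ratios of Eif6+/- over wild type in tibialis anterior by pair for immediate early genes and clock genes; a star marks a called gene. Early genes such as Fos (2.64, −1.73, 0.19 and 2.34) are high in pairs 1 and 4, whereas Nfil3 and Ciart are alike in all pairs.

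Of 42 calcium handling genes, 10 fell and 4 rose (33.3% called beside 16.2% of all genes): 4 of 10 genes of excitation-contraction coupling and 4 of 10 of calcium uptake and storage fell, none of either rose, and the medians of these groups were −0.168 and −0.206. By pair the median of the coupling genes was −0.259, −0.241, −0.279 and 0.104, above 0 in pair 4. Besides Jph2, Atp2a1, Casq2 and Sln, these were Ryr1, the release channel (−0.60, −0.67, −0.40 and 0.06, mean −0.40, adjusted p = 0.0758), Cacnb1 (−0.29), Asph (−0.23, although 3 of its 4 probes pointed up, to 0.36) and Sypl2 (−0.38). Ryr1, Jph2 and Atp2a1 shared 1 shape, low in pairs 1 to 3 and near 0 in pair 4. Of the sensors and effectors 3 rose, calmodulin Calm3 (0.35), calcineurin B Ppp3r1 (0.27) and Nfatc3 (0.28; −0.066 at its other probe, and not called with pairs 1 and 4 averaged, 0.128), and S100a1, which opens the release channel, fell (−0.53, adjusted p = 0.0341). Ryr1 was not called without pair 1 (0.291), 2 (0.212) or 3 (0.142), and of the 14 calls 5, 7 and 12 held without pairs 2, 3 and 4 and 0 without pair 1. With pairs 1 and 4 averaged 3 genes rose and 9 fell. The fit over all 8 arrays ended the calls of Ryr1 (0.147), Ppp3r1 (0.14) and Sln (0.464).

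Of 10 polyamine genes 3 rose and 1 fell (40% called beside 16.2% of all genes). Amd2, a copy of S-adenosylmethionine decarboxylase, was at levels of 15.65, 15.59, 15.64 and 15.77 in Eif6+/- and 14.92, 14.14, 15.56 and 14.29 in wild type. The Eif6+/- levels were close together and the wild-type level of pair 3 was nearest them, so that the ratios were 0.73, 1.44, 0.08 and 1.48 (mean 0.93, adjusted p = 0.0422). Odc1, ornithine decarboxylase, rose by 0.20, 1.13, 0.72 and 0.37 (mean 0.60, adjusted p = 0.0439), most in pair 2, and Sat1, which starts polyamine breakdown, by a mean of 0.39. Of the 3 probes of Odc1 1 was called, and the lowest gave 0.02. The fit over all 8 arrays ended the calls of Odc1 (0.129) and Sat1 (0.159). Srm, spermidine synthase, fell evenly, at −0.30, −0.30, −0.29 and −0.39. Without pair 1 the adjusted p was 0.182 for Amd2, 0.12 for Odc1, 0.196 for Sat1 and 0.1635 for Srm, and without pair 2 it was 0.121, 0.106, 0.108 and 0.105. All 4 calls held without pair 3 and without pair 4.

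Genes of translation were called in both directions. Of 82 cytosolic ribosomal proteins 14 rose and 4 fell (22% called beside 16.2% of all genes), with a median of 0.059 (0.038 without pair 1). That median was 0.026 with loess alone, 0.033 in the deposited ratios and 0.024 with Agilent's processed signals. The large subunit, which eIF6 binds, held 10 of the rises and 2 of the falls among its 49 genes. Rpl23 rose by 0.50, 0.49, 0.49 and 0.51 in pairs 1 to 4 (mean 0.50, SD 0.011, adjusted p = 0.0132), and Rps2 fell (−0.38, adjusted p = 0.0369). Of the 3 probes of Rpl23 1 was called, and the lowest gave 0.082. Of 46 initiation factors 6 rose and 7 fell (28.3%), with a median of −0.001 that turned to 0.01 with loess alone and to 0.003 to 0.031 with 1 pair left out; Eif3k rose (0.41, although 1 of its 3 probes gave −0.29), Eif5a, which carries hypusine, fell by 0.96, 0.56, 0.42 and 0.21 in pairs 1 to 4 on the log2 scale, and Eif4g1, the scaffold at the cap, fell by a mean of 0.39. Of 51 nucleolar factors 6 rose and 2 fell (15.7%), and of 79 mitochondrial ribosomal proteins 4 rose and 10 fell (17.7%), shares close to that of all genes. Calls that held without pairs 1, 2, 3 and 4 were 0, 2, 6 and 12 of 18 cytosolic ribosomal proteins and 0, 0, 5 and 10 of 13 initiation factors; without pair 1 the adjusted p was 0.104 to 0.34 and 0.161 to 0.344 in these lists. With pairs 1 and 4 averaged 10 cytosolic ribosomal proteins rose and 1 fell. Of the 8 calls of nucleolar factors 2, 7 and 6 held without pairs 2, 3 and 4, and of the 14 calls of mitochondrial ribosomal proteins 3, 6 and 10 did.

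Other cell types in the muscle moved by pair as well, and their part in the results was not tested. Connective tissue markers were high in pair 3: the 11 fibroblast and tendon genes had medians of 0.42, −0.79, 1.47 and −0.19 in pairs 1 to 4. Their mean log2 levels were 10.46, 10.16, 11.45 and 10.46 in Eif6+/- and 9.96, 10.90, 9.82 and 10.55 in wild type, with Dcn the brightest. Fmod, a tendon proteoglycan, had ratios of 0.71, −0.94, 3.55 and −0.26, and Col1a1, of fibrillar collagen, 0.0033, −0.55, 3.13 and −0.74. In pair 3 the Eif6+/- mean was the highest of the 8 channels and the wild-type mean the lowest, and none of the 11 was called.

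Fat cell markers were also highest in pair 3, with medians of 0.42, −0.15, 1.01 and 0.54 over 9 genes and mean levels of 9.66, 8.89, 10.36 and 9.65 in Eif6+/- and 9.35, 9.04, 9.44 and 9.38 in wild type. Car3 was the brightest, Lep and Ucp1 were not tested, and 3 of 9 rose (33.3%, beside 8.81% of all genes called higher): Retn (0.74, −0.15, 1.30 and 0.72, mean 0.65), Cidec (0.60, and 0.345 without pair 3) and Plin1 (0.51, above background in wild type on 3 of 4 arrays, and 1.18 with Agilent's processed signals). The fit over all 8 arrays ended all 3 calls. Without pair 1 their adjusted p was 0.272, 0.235 and 0.282, and of the 3 calls 3, 1 and 1 held without pairs 2, 3 and 4. With pairs 1 and 4 averaged 0 of these 3 were called, at adjusted p of 0.167, 0.128 and 0.171. Scd1, a fat-synthesis enzyme that fat cells hold at high level, had 0.92, −0.33, 1.56 and 1.06 (adjusted p = 0.0882) and was not called without pair 1 (0.296), 3 (0.203) or 4 (0.169) or with the averaged pairs (0.203).

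Of 7 red blood cell markers 4 fell and none rose (57.1%, beside 7.4% of all genes called lower), with medians of −0.65, −0.99, −0.57 and −0.20. Their mean levels were 10.33, 9.71, 10.05 and 10.39 in Eif6+/- and 10.77, 10.75, 10.45 and 10.57 in wild type; Hba-a2, not called, was the brightest, and Hbb-b1, Epb42 and Ahsp were not tested. Every Eif6+/- mean was below every wild-type mean, but the Eif6+/- means of pairs 1 and 4 may not be separate observations. How often other sets of genes separate in this way was not counted. Of 9 smooth muscle and pericyte markers 5 fell (55.6%), with medians of −0.57, −0.45, −0.43 and −0.09: Myh11, smooth muscle myosin, had −0.73, −0.42, −0.96 and −0.09 (mean −0.55, adjusted p = 0.048). Their mean levels were 10.37, 10.18, 10.22 and 10.36 in Eif6+/- and 10.85, 10.59, 10.60 and 10.48 in wild type, with Des, which muscle fibres share, the brightest. Alas2, of haem synthesis, and Tagln, of smooth muscle, had means of −0.67 and −0.55, and without pair 1 the adjusted p was 0.118 for Alas2, 0.22 for Myh11 and 0.19 for Tagln. The 4 red blood cell calls held without each of pairs 2, 3 and 4, and of the 5 smooth muscle calls 3, 4 and 5 did.

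Of 10 myelinated nerve markers 6 fell and none rose (60%, beside 7.4% of all genes called lower), with medians of −0.22, −0.27, −0.31 and −0.40. With loess alone and with pairs 1 and 4 averaged 5 fell, and with Agilent's processed signals 4. Ncmap, a protein of the myelin of peripheral nerve, had −0.48, −0.38, −0.64 and −0.56 (mean −0.52, adjusted p = 0.0159), and Prx, periaxin, −0.20, −0.55, −0.50 and −0.50 (mean −0.44, adjusted p = 0.0275). Their mean levels were 7.65, 7.81, 7.55 and 7.66 in Eif6+/- and 7.91, 8.10, 7.85 and 8.02 in wild type, with Pmp22 the brightest and Nefl not tested. All 4 Eif6+/- means lay below all 4 wild-type means, with the same limits as for the red blood cell markers. Of the 6 calls 3 held without each of pairs 2, 3 and 4 and 0 without pair 1 (0.112 for Ncmap and 0.104 for Prx).

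Immune cell markers gave few calls. Of 12 neutrophil markers 4 were tested and 2 fell, S100a9 and Camp (50% of the 4, beside 7.4% of all genes called lower). Camp was above background in Eif6+/- on 2 of 4 arrays only, so its size is uncertain (−0.32, and −1.31 with Agilent's processed signals). Its call (adjusted p = 0.0993) was lost in each of the 4 fits with 1 pair left out (0.121 to 0.325), with pairs 1 and 4 averaged (−0.25, 0.169) and with loess alone (0.109). S100a8, Retnlg, Ngp, Ltf, Mpo, Cxcr2, Ly6g and Mmp8 were not tested, and the 4 tested had mean levels of 8.48 to 8.90 in Eif6+/- and 8.69 to 9.36 in wild type, with Csf3r the brightest. Of 14 macrophage and MHC class II genes C1qb alone was called (7.14% of the list; −0.46, adjusted p = 0.0526; 0.112 with pairs 1 and 4 averaged, and 0.21, 0.155 and 0.107 without pairs 1, 2 and 4), and the median of −0.017 turned to 0.008 with loess alone and lay between −0.112 without pair 1 and 0.112 without pair 2. The direction of the calls was not stable: with pairs 1 and 4 averaged 1 was called higher, Ctss (0.70, adjusted p = 0.0634), and none lower, and without pair 4 2 were called higher and none lower. None of the 3 lymphocyte markers tested was called. Endothelial markers had a median of −0.093 (−0.157 without pair 3), and 2 of 10 fell (20%), Pecam1 (−0.32) and Emcn (−0.28), with adjusted p of 0.121 and 0.1246 when pairs 1 and 4 were averaged, 0.102 and 0.115 with loess alone, and 0.258 and 0.251 without pair 1; both calls held without pair 3 and ended without pairs 2 and 4. The 10 muscle fibre markers had mean levels of 15.81 to 15.92 in Eif6+/- and 15.76 to 16.03 in wild type, with Acta1 the brightest; 1 rose and 3 fell (40% called beside 16.2% of all genes), and their median of −0.058 turned to 0.043 with loess alone and was −0.12 without pair 1 and −0.172 without pair 4.

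**Figure D5:**
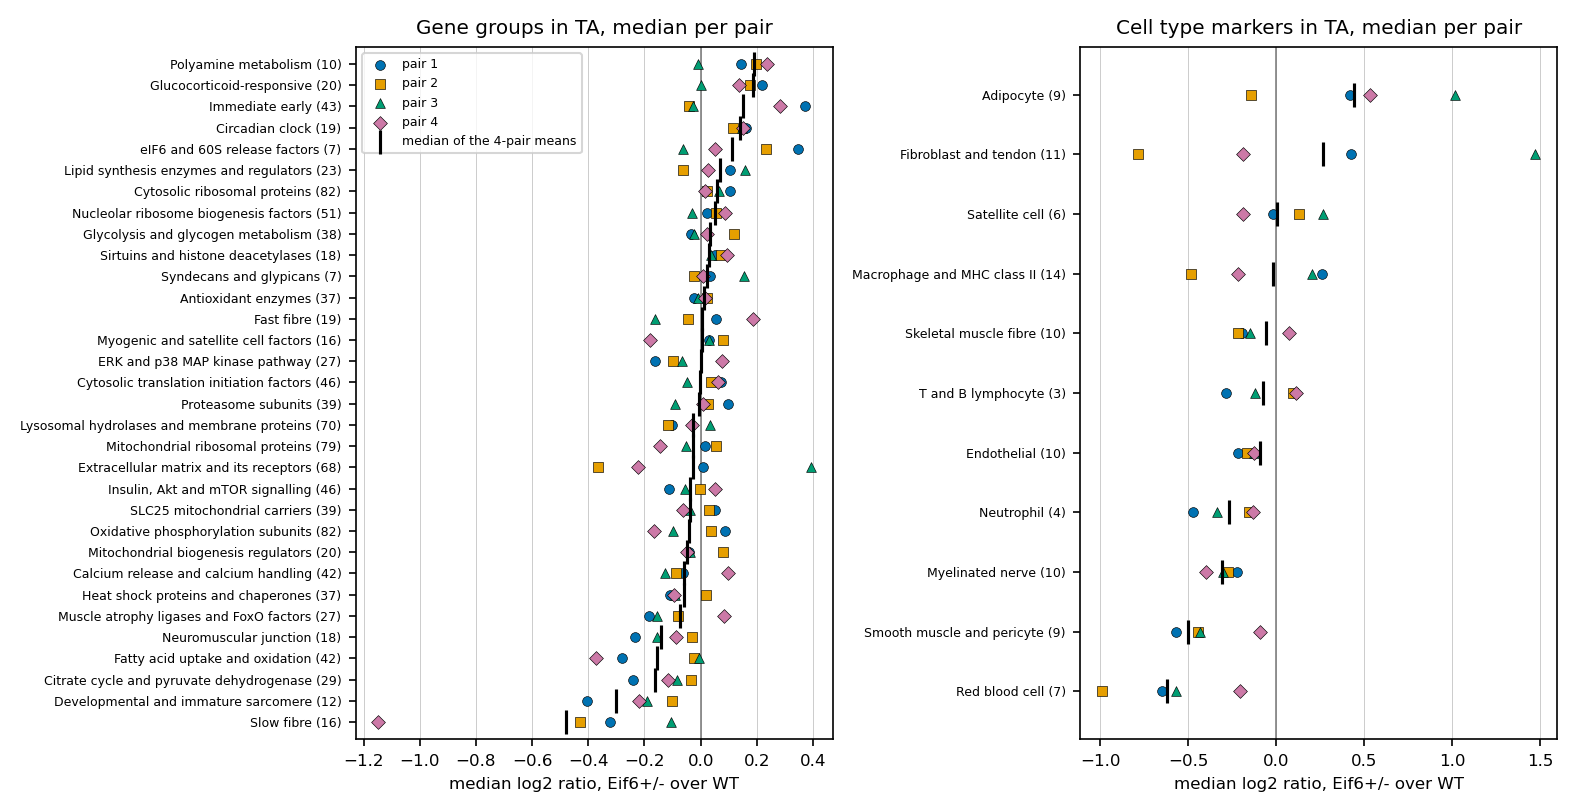
Median log2 ratio of Eif6+/- over wild type per tibialis anterior pair (points) for the pathway and marker lists, with the number of genes tested in brackets and a black bar at the median of the 4-pair means. Fibroblast and tendon markers spread from −0.79 in pair 2 to 1.47 in pair 3, and slow fibre genes reach −1.15 in pair 4; the medians of oxidative phosphorylation, muscle fibre, macrophage and initiation factor genes turned sign with loess alone, and those of fast fibre, matrix and mitochondrial biogenesis genes with pairs 1 and 4 averaged.

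Beside gastrocnemius on the other 4 arrays, no gene was shown to respond differently. The contrast of both muscles over 8 arrays gave 0 called genes of 12200 (0%; limma, smallest adjusted p 0.274, 1036 genes with an unadjusted p under 0.05), and 0 with a block for the pair number (869 unadjusted). The smallest p belonged to Lrtm1, a leucine-rich membrane protein of muscle, at −0.48 in tibialis anterior and 0.15 in gastrocnemius; without the filter on dim probes it was called. Without pair 2 of both muscles 7 genes were called, among them Pi16 and Fbln1 of fibroblasts and the complement gene C4b (differences of 1.85, 1.01 and 2.48), which were chosen for naming after their values were seen.

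Of the 2007 called genes 1986 could be tested in gastrocnemius too, where 783 were called, 782 of them in the same direction, and 178 had the opposite sign. No share of all genes called in gastrocnemius stands beside these counts, so they do not measure agreement between the muscles. Eif6 (−1.01), Sdc4 (1.21), Slc25a25 (1.16), Rem1 (0.71) and Map1lc3a (−0.68) had ratios near those of tibialis anterior. Other large changes were smaller in gastrocnemius: Amd2 (−0.02 beside 0.93), Mstn (0.24 beside 0.79), Dkk3 (0.25 beside 0.71), Myl10 (−0.29 beside −0.90) and Hbb-bs (−0.59 beside −1.30). These genes were picked for their size in tibialis anterior, which by itself favours smaller values in gastrocnemius. Their differences between the muscles were not called (limma, adjusted p of 0.624 to 0.685). The slow fibre genes had a median of 0.43 in gastrocnemius beside −0.48 in tibialis anterior, fatty acid genes 0.124 beside −0.155 and oxidative phosphorylation 0.253 beside −0.042 (a sign that depends on the scaling, as given above). For Tnnt1 the gastrocnemius pairs were at 2.64, −1.19, −0.54 and −0.45, with pair 1 far above the others, and the difference of −1.01 was not called (adjusted p = 0.715). For Ldhb they were at 3.07, −0.72, 0.90 and −0.28, and the difference of −1.60 was not called either (adjusted p = 0.624). None of the lists held a gene whose difference was called.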

How the data were processed

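RNA of tibialis anterior was measured on 4 arrays, and of gastrocnemius on 4. The authors deposited Agilent Feature Extraction output: spot and background intensities, not normalized, Agilent's processed intensities, and other columns of quality marks of 0 or 1. They also deposited a table of log2 ratios of Cy5 over Cy3, which equals loess-normalized uncorrected intensities (r of 0.999961 to 0.999996) with column medians of −0.00441 to 0.00375, so its scale, centring and direction are known.

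Median spot intensities were background-corrected with limma's normexp (offset 50), normalized by loess within arrays with control spots at weight 0, then by quantiles across 16 channels (limma 3.58.1 in R 4.3.3). Figures were drawn in Python 3.11.15 with matplotlib 3.10.9. Control and outlier spots (233 to 272 per tibialis anterior array) were left out and spots of a probe averaged. A probe was kept if Agilent marked it well above background in Cy5 or Cy3 on each of the 4 tibialis anterior arrays, which left 23383 of 55681 probes. Probes were named by RefSeq accession through a gene table of GRCm38.p6 (27235 of 28685 with an accession, 20660 genes), and a gene was counted by its brightest probe. Promoters came from RefSeq for the same build. Log2 ratios were tested against 0 with lmFit and eBayes, with Benjamini-Hochberg adjustment over kept probes and a threshold of 0.1, and the difference between muscles as a contrast over 8 arrays. The methods name a t-test and SAM, which were run as alternatives. The code of the call procedure was tested on simulated data, which supports no single call.

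Named genes are Eif6, the 12 highest and 12 lowest mean ratios among called genes of 1 sign on all pairs, and for each list up to 3 called genes and 1 that was not called, taken by size, 153 in all; others in the text are further members of the lists, given with their list. The members and lists were chosen with earlier results of these data known. Alternatives were other normalizations, background corrections and filters, Agilent's processed signals, the deposited ratios, each pair left out, a fit over all 8 arrays, other thresholds, tests and units of counting, and, chosen after seeing the data, pairs 1 and 4 averaged. Some results on single genes, withheld for evaluation, are not reported here.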

Additional observations from a re-analysis of the deposited data

Results flagged for a closer look

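Of 195 values examined, 152 single genes and the list medians, 10 had 1 pair standing far apart from the other 3 (the gap to the nearest pair, as a share of the whole range, was above Dixon's critical value), and chance alone marks about 1 in 20. No cause was tested for any of them. Pair 4 stood apart for Sdc4, at 0.002 beside 1.42 to 1.54, and for Ckm, at 0.41 beside −0.72 to −0.60; for both the wild-type channel of pair 4 was the one that differed from the other wild types. Pair 1 stood apart for Per1, at 1.38 beside 0.27 to 0.41, for Rack1, at 0.56 beside 0.29 to 0.33, and for Prx, at −0.20 beside −0.55 to −0.50. Pair 3 stood apart for Col4a2, of basement membrane, at −0.12 beside −0.72 to −0.66. Pair 2 stood apart for Cox6b1, at −0.30 beside −0.51 to −0.48, and for Pdp2, at −0.0511 beside −0.50 to −0.49. It also stood apart in the median of the heat shock proteins and chaperones, at 0.019 beside −0.108 to −0.09, and of the mitochondrial biogenesis regulators, at 0.078 beside −0.05 to −0.037.

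Ppargc1a, the coactivator that drives mitochondrial biogenesis, was below 0 in all 4 tibialis anterior pairs (mean −0.20, adjusted p = 0.165), although its other probe gave 0.0031. In all 4 gastrocnemius pairs Ppargc1a was above 0 (mean 0.33). Ppargc1a was picked by this pattern from the 152 single genes examined, and 79 of all 12381 genes tested had opposite signs in all pairs. Its difference between the muscles, −0.53, was tested by limma and not called (adjusted p = 0.624).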

How the results depend on the processing

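The count of 2007 called genes stayed within 1.5 times under loess alone, quantiles over tibialis anterior alone, no background correction, the deposited ratios, both filters on dim probes, the fit over 8 arrays, the median over probes, SAM at 0.1 and the averaged pairs 1 and 4. It was 1191 with a normexp offset of 0, 841 with Agilent's processed signals, 809 at an adjusted p under 0.05, 3558 when probes were counted, 314 with SAM at 0.05 and 1051 with the Benjamini-Hochberg adjusted form of the methods' t-test. With 1 pair left out it ran from 0 (limma; 2193 unadjusted) to 1981. A stricter threshold lowers a count by construction. The cause of the other shifts was not tested, and with 3 pairs the count depended on which pair was left out. The difference between muscles gave 1 gene with Agilent's processed signals and 1 without the filter, and 0 to 7 with 1 pair left out, beside 0 (limma; 788 to 1036 unadjusted) in the other settings. Eif6 kept its direction and call, except without pair 1 (−0.93, adjusted p = 0.104); with 1 pair left out it ran from −1.07 to −0.93.

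Of the 111 called genes that the naming rule above picked beside Eif6, 91 kept their call with pairs 1 and 4 averaged, 85 in the fit over all 8 arrays, 106 with loess alone, 87 with a normexp offset of 0, 51 with Agilent's processed signals, 108 in the deposited ratios, and 0, 62, 87 and 99 without pairs 1 to 4. Among these and further called genes in the text outside the 111, the fit over 8 arrays ended the calls of Hmga2-ps1, Tnnt1, Tnni1, Tnnc1, Myh7b, Mb, Myoz2, Sln, Tnnt2, Ldhb, Acadm, Acadl, Eci1, Slc25a20, Slc27a1, Lipe, Mdh2, Ogdh, Suclg2, Ryr1, Ppp3r1, Odc1, Sat1, Ccn2, Dusp8, Dusp10, Retn, Cidec, Plin1, Scd1, C1qb, Gpx3, Msrb2, Trim54 and Myog, among others. The alternatives, other than those with 1 pair left out, moved the size of some calls by more than 1.5 times, at the farthest to 2.45 for Rem1, 2.03 for Sdc4, −2.66 for S100a9, −1.33 for Tnni1, −1.21 for Myh7b, 1.18 for Plin1, −0.93 for Ncmap, −1.31 for Camp, 0.82 for Myog, 0.64 for Mdh2 and −0.74 for Pdp2, and with loess alone to 0.91 for Aldoa, 0.87 for Tnnc2, 0.75 for Tpm1 and −0.34 for Mb. With 1 pair left out, sizes shrank by more than 1.5 times for Cidec, Camp, Sypl2, Per1, Cry2, Klf15, Pfkfb3, Ldhb, Dnajb1, Mb, Myoz2 and Mdh2. Gapdh, not called, reversed from −0.21 to 0.18 with loess alone (and with Aquantile after it), 0.073 with Agilent's signals and 0.21 in the deposited ratios. With 1 pair left out, Cd79b ran from −0.15 to 0.0041 and Fmod from −0.16 to 1.33. Over all genes, deviations of equal pair numbers in the 2 muscles had r of −0.146, 0.017, −0.357 and 0.0899 for pairs 1 to 4, but single genes repeated their shape: in gastrocnemius Slc25a25 had 2.17, 1.25, −0.0142 and 1.23, Sdc4 1.52, 1.45, 1.75 and 0.12, and Per1 1.095, 0.29, 0.29 and 0.47. Whether equal numbers stand for the same mice is not known. Signal over background limits dim genes, since 40.14% to 48.62% of probes per channel were well above it.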

Other observations

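Several gene groups outside the comparisons above held called genes. Their shares, beside 16.2% of all genes, were 33.3% for sirtuins and deacetylases, 8.82% for matrix, 16.7% for neuromuscular junction, 14.8% for atrophy, 18.5% for the ERK and p38 pathway and 21.4% for lysosomal genes. Of the 18 sirtuins and histone deacetylases, 5 deacetylases rose, among them Hdac1 (0.38, although 2 of its 3 probes pointed the other way, down to −0.138) and Hdac9 (0.34), and Sirt2 fell (−0.40). A matrix list of 68 genes held 2 higher and 4 lower. Of its 17 fibrillar and network collagens 1 rose and 2 fell, Col4a1 and Col4a2. Col4a1 had −0.85, −0.88, −0.08 and −0.66 (mean −0.62) and Col4a2 a mean of −0.54, both weakest in pair 3, where the other connective tissue genes were highest. The list median of −0.029 turned to 0.014 with pairs 1 and 4 averaged, 0.072 without pair 2 and 0.049 without pair 4, and without pair 3 it was −0.193, with 1 gene called higher and 12 lower. Of 18 neuromuscular junction genes 3 fell and none rose, Ache, acetylcholinesterase (−0.45), Scn4a, the muscle sodium channel (−0.43), and Lamb2, the synaptic laminin (−0.39). Of 27 atrophy ligases and FoxO factors 4 fell and none rose, Map1lc3a, Stub1 (−0.34), Trim54 (−0.29) and Foxo1 (−0.25, although its other probe gave 0.16; not called with pairs 1 and 4 averaged, 0.123). With loess alone 1 junction gene and 1 atrophy gene rose. In the ERK and p38 pathway 4 of 27 fell and 1 rose, with Mapk3 (ERK1) at −0.71, −0.61, −0.33 and −0.42 and Mapkapk2 at a mean of −0.47. Of 70 lysosomal genes 5 rose and 10 fell, with the protease Ctsd at −0.47 and the proton pump subunit Atp6v0b at −0.59. Without pair 2 the adjusted p was above the threshold for Hdac9 (0.137), Col4a1 (0.111), Col4a2 (0.101), Ache (0.135), Scn4a (0.146), Lamb2 (0.115), Stub1 (0.115) and Trim54 (0.133), and without pair 3 for Hdac9 (0.116) and Trim54 (0.17); of the 4 atrophy calls 1, 3 and 3 held without pairs 2, 3 and 4.

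Beside 16.2% of all genes, the shares called were 32.4% for chaperones, 25.6% for proteasome, 21.7% for insulin, Akt and mTOR, 18.8% for myogenic and satellite cell, 25% for glucocorticoid-responsive, 30.4% for lipid synthesis, 20.5% for carrier and 25% for mitochondrial biogenesis genes. Of 37 chaperones 5 rose and 7 fell, with Dnajb1, a partner of Hsp70, at 1.47, 0.57, 0.11 and 0.42 and Stip1 at a mean of −0.47. Of 39 proteasome subunits 5 rose and 5 fell; the activator Psme3 rose evenly (0.52, 0.58, 0.47 and 0.54) and Psmb7 fell (−0.61). In insulin, Akt and mTOR signalling 6 of 46 rose and 4 fell, with the kinase Rps6kb1 at 0.44, Rheb at 0.43, Mtor at −0.27 and the mTOR inhibitor Akt1s1 at −0.45. Of 16 myogenic and satellite cell factors 2 rose and 1 fell: Mef2a had 0.44, 0.41, 0.51 and 0.44, whereas Mef2d was at −0.38, and Myog, myogenin, was at 0.42. Antioxidant enzymes gave 1 higher and 5 lower of 37 (16.2%, the share of all genes), with Gpx3 at −0.84, −1.08, −0.77 and 0.19. Of 20 glucocorticoid-responsive and metallothionein genes 3 rose and 2 fell, with Klf15 at 1.02, 0.18, 0.10 and 0.58; of 23 lipid synthesis genes 4 rose and 3 fell; of 39 mitochondrial carriers 3 rose and 5 fell; and of 20 mitochondrial biogenesis regulators 2 rose and 3 fell, with a median of −0.047 that turned to 0.001 with pairs 1 and 4 averaged and 0.03 without pair 4. Klf15 (adjusted p = 0.169) and Mtor (0.103) were not called with pairs 1 and 4 averaged. Without pair 2 the calls of Dnajb1 (0.155), Stip1 (0.11), Akt1s1 (0.123), Mef2d (0.113), Myog (0.243), Gpx3 (0.198) and Klf15 (0.116) ended, without pair 3 those of Akt1s1 (0.128), Mef2d (0.119), Myog (0.208) and Gpx3 (0.151), and without pair 4 that of Klf15 (0.153). Of the 10 calls in insulin, Akt and mTOR signalling 2, 4 and 7 held without pairs 2, 3 and 4. In the same order these were 2, 8 and 11 of 12 for chaperones and 3, 5 and 7 of 10 for proteasome genes. They were 0, 3 and 1 of 5 for glucocorticoid-responsive and 3, 4 and 3 of 7 for lipid synthesis genes. For carriers they were 1, 4 and 7 of 8, and for biogenesis regulators 1, 1 and 3 of 5. No call of any group held without pair 1, where adjusted p for these lists was 0.104 to 0.336.

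Some markers had few tested members. Alb, Apoa1, Gfap, Nphs1, Sftpc and Nppa, markers of other tissues, were not tested, and Myh6 (−0.47) was not called. Of the lymphocyte markers Cd3d, Cd3g, Cd8a, Cd8b1, Ms4a1, Cd79a and Ighm were not tested. Of the sex-linked genes Xist, Kdm5d and Uty were not tested, and the 2 tested, with Eif2s3y the brightest, were not called. For satellite cells Myf5 and Chodl were not tested, and the mean levels of the 6 tested markers, of which Sdc4 alone was called, were 7.5 to 7.69 in Eif6+/- and 7.34 to 7.70 in wild type. Among the kept probes that have no gene name, 388 of 3447 genome intervals and 598 of 4094 others were called, beside 2572 of 15842 probes with a name.

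For 13 of the 2007 called genes every tibialis anterior pair had the opposite sign to every gastrocnemius pair. This share is close to that of all genes tested (79 of 12381), so it does not set the called genes apart. The 13 were Msrb2, Ccdc85a, Lrtm1, Fzd10, Fuom, Stim1, Cox4i1, Dclre1c, Rgs4, Ppp1r12b, Fbxl4, Rnf128 and Tmem126a, picked by these values. Lrtm1 was the most even, at −0.48, −0.51, −0.48 and −0.46 beside 0.20, 0.15, 0.07 and 0.16. None of the 13 differences was called by limma with the filter on dim probes; without it that of Lrtm1 was (−0.63, adjusted p = 0.0674). Msrb2 (0.151) and Cox4i1 (0.129) were not called in tibialis anterior with pairs 1 and 4 averaged.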
